A study of Mus musculus with 10 samples.

Results

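The IL-6, oncostatin M and LIF family was followed in mouse skin through 10 genes, of which all 10 were found by symbol among the 19175 genes of the deposited expression table. They comprise 4 secreted ligands (Il6, Osm, Lif and Il11) and 6 receptor chains (Il6ra, Il6st, Osmr, Lifr, Il11ra1 and Il31ra). The members were chosen by name as cytokines and receptors built around the shared receptor chain gp130, with the IL-31 receptor added. The samples were pieces of skin from C57BL/6 mice in the MC903 dermatitis model, in which a vitamin D analogue put on the skin causes an itchy inflammation. Poly(A) RNA of 10 samples was sequenced, 5 from animals labelled as a basophil VAMP7 conditional knockout (CKO) and 5 labelled Flox, which the labels also call WT. VAMP7 belongs to the SNARE proteins, which drive the fusion of vesicles with other membranes. The Cre driver, the age of the animals, the time of sampling and the number of animals per sample are not stated in the labels, and both groups came from the MC903 model, so no uninflamed skin stands beside them. Nothing says that the numbered samples are separate animals, so p-values below reflect sample-to-sample spread alone, and that spread may be technical.

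As background, cytokines of this family signal by bringing together receptor chains at the cell surface. IL-6 binds its own receptor chain IL-6Rα and then gp130, the product of Il6st. IL-11 does the same through its own chain, encoded by Il11ra1. LIF signals through LIFR with gp130, and mouse oncostatin M mainly through OSMR with gp130. OSMR also pairs with the IL-31 receptor chain, encoded by Il31ra, to form the receptor of the itch cytokine IL-31. The joined chains activate Janus kinases and the transcription factor STAT3, and STAT3 induces Socs3, which shuts gp130 signalling off. In skin, keratinocytes and fibroblasts respond to oncostatin M, while leukocytes such as neutrophils and macrophages are known to make it.

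Values are FPKM, that is, reads corrected for transcript length and for how many were mapped in the library, and errors are SD with n = 5 per group. Log2 fold changes compare CKO with Flox after adding 1 FPKM to each value, so those of scarce transcripts are understated. Library totals were 525369 to 581022 FPKM, and the number of reads is unknown. The targeted gene Vamp7 ranged from 17.33 to 19.19 FPKM (CKO) and from 18.09 to 22.5 FPKM (Flox), which checks no label in whole skin, since other cells also express it. All 5 keratinocyte markers and all 5 fibroblast markers were above 0 in every library, with summed levels of 4528 to 6521 and 3040 to 4269 FPKM. CKO replicate 1 stood apart: its 8 skeletal muscle markers summed to 935 FPKM, against 241 to 558 FPKM in the other CKO libraries and 149 to 268 FPKM in Flox. That library was the lowest or highest of the CKO group for 9 of the 10 family members and for 63.8% of the genes tested. Muscle transcripts were also higher across the CKO group. All 7 muscle markers tested were higher at an unadjusted limma p under 0.05 (median log2 fold change 1.03), against 4.78% of all genes. Without CKO replicate 1 all 7 were still higher at that p (median 0.62), and 0 passed after adjustment in either fit. The 7 basophil markers summed to 75.0 to 124 FPKM in CKO and to 249.9 to 307 FPKM in Flox, and none was at 0 in any library.

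Levels of the family ranged widely in this skin. Il11ra1 (mean over all 10 libraries 96.0 FPKM) and Il6st (84.5 FPKM) were the most abundant transcripts, and their ranges overlapped. A middle group followed, made of Il6ra (18.2 FPKM), Osmr (18.0 FPKM), Osm (16.5 FPKM) and Il6 (16.4 FPKM), whose ranges overlapped with each other. Lifr came next at 9.17 FPKM, with a range of 6.77 to 15.34 FPKM that reached into the middle group and met that of Il11. Il11 (2.52 FPKM), Lif (1.21 FPKM) and Il31ra (0.979 FPKM) were the lowest, again with overlapping ranges. In all, 9 of the 10 members reached the minimum of 1 FPKM in at least 5 libraries that was set for testing across genes. Il31ra reached 1 FPKM in 4 libraries and was examined on its own. The order of levels was therefore abundant shared or specific receptor chains, then the pair of ligands Il6 and Osm at about the level of their receptors, then scarce transcripts.

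**Figure D1:**
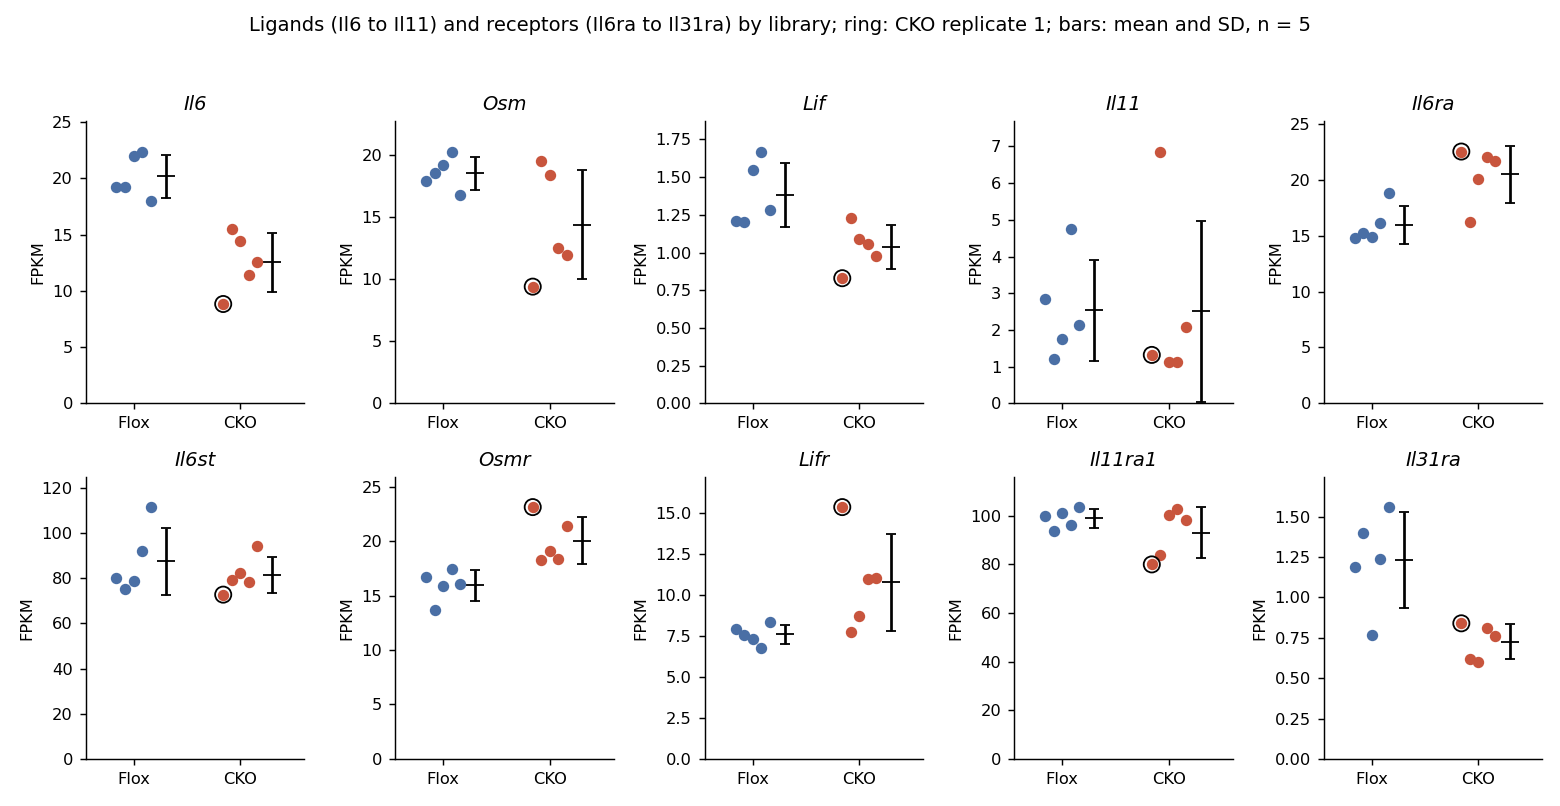
FPKM of each family member in the 5 Flox and 5 CKO libraries, with the mean and SD of each group (n = 5); each panel has its own linear axis from 0, and the ring marks CKO replicate 1. All 5 CKO libraries lie below all Flox libraries for Il6 and above them for Osmr, and the groups overlap for the other 8 members.

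Of the 9 members tested, 0 passed over all genes in limma (Benjamini-Hochberg adjusted p under 0.05), where 0.0455% of the 13186 genes tested were higher and 0.0607% lower in CKO. At an unadjusted limma p under 0.05 there were 3 members lower in CKO and 3 higher, against 10.3% and 4.78% of all genes tested. The lower ones were Il6, Osm and Lif, all ligands, and the higher ones Il6ra, Osmr and Lifr, all receptor chains. With the muscle marker level of each library as a covariate, 1 member, Il6, was left under that unadjusted p. The number of all genes tested under it went from 1993 to 1221. This muscle level, the mean log2 value of the markers, was 3.97 to 5.77 in CKO and 3.27 to 3.91 in Flox, without overlap. Values with the covariate, here and below, therefore cannot separate muscle transcripts from the group. CKO and Flox libraries were apart, with no overlap, for 1 member below (Il6) and 1 above (Osmr), against 3.00% and 1.24% of the genes tested, or 4.23% in either direction. The median log2 fold change of the 9 members was -0.093, beside -0.027 over all genes tested. The common chain Il6st and the IL-11 receptor Il11ra1 were at similar levels in both groups. The receptor chains were divided: 3 had higher means in CKO, and the other 3 (Il6st, Il11ra1 and the untested Il31ra) had lower ones.

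Il6 (Entrez 16193), the cytokine that names the family and that basophils are among the cells known to make, had the largest absolute log2 fold change of the 9 members tested. It was at 8.83, 15.52, 14.39, 11.44 and 12.54 FPKM in CKO replicates 1 to 5. In Flox replicates 1 to 5 it was at 19.24, 19.27, 21.98, 22.38 and 17.98 FPKM. Every CKO library lay below every Flox library, and CKO replicate 1 was the lowest. The mean was 1.61-fold lower in CKO, and its log2 fold change was -0.66 (SE 0.13; 95% interval -0.95 to -0.38; limma adjusted p = 0.0739). The log2 fold change was -0.55 without CKO replicate 1 (limma adjusted p = 0.0573) and -0.37 with the muscle marker level of each library as a covariate. With array quality weights, which give CKO replicate 1 a weight of 0.272, Il6 passed (limma adjusted p = 0.0279), and its adjusted p ranged from 0.0279 to 0.436 in 17 alternatives. Of the 7 basophil markers, 3 fell in CKO over all genes tested in limma. The 4 eosinophil markers, of which Epx was listed at 0 in some libraries, were also lower, summing to 4.65 to 9.20 FPKM in CKO and 7.76 to 18.3 FPKM in Flox, and the 3 tested had a median log2 fold change of -0.69 (0 passed, 3 lower at an unadjusted limma p under 0.05). The part of either marker list in the lower Il6 level was not tested, and in bulk skin fewer cells of a type and less RNA per cell cannot be told apart.

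The stretch before the Il6 start is shown because Il6 is the ligand whose groups did not overlap, and the one before Osmr because it is the receptor with that property. These are the 250 bases upstream of the RefSeq start (build GRCm38.p6), at chr5:30012864-30013113 on the plus strand for Il6 and chr15:6874314-6874563 on the minus strand for Osmr, written 5′ to 3′ along the gene. Capitals mark matches, on either strand, to 5 motifs: an NF-kB site (GGG and TTTCC with any 2 bases between), a CRE core (ACGTCA), a C/EBP site (TTNNGNAA), an AP-1 site (TGANTCA) and a STAT site (TTCNNNGAA).
Il6: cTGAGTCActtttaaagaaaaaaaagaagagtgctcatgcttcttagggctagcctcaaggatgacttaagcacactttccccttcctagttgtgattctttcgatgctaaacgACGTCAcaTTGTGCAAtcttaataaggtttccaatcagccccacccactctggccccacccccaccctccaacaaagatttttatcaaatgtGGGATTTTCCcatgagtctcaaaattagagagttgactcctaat
Osmr: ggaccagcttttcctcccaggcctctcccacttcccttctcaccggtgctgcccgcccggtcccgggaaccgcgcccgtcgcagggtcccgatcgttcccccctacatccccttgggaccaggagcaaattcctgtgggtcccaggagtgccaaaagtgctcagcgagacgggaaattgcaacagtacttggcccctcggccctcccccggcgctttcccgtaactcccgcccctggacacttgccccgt
The Il6 window held the NF-kB letters GGGATTTTCC at 44 to 35 bases before the start, the C/EBP letters TTGTGCAA at 128 to 121, the CRE core at 136 to 131 and the AP-1 letters TGAGTCA at 249 to 243. No STAT letters were found there, and the Osmr window held none of the 5 motifs. Among 32851 RefSeq windows of the same length, 1.41% held the NF-kB letters, 6.47% the CRE core, 36.8% the C/EBP letters, 6.75% the AP-1 letters and 7.02% the STAT letters. A match of letters is a description of the window only. Windows were found for 9 of the 10 members, all but Osm.

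Osm (Entrez 18413), oncostatin M, differed between CKO libraries more than between groups. It was at 9.41, 19.56, 18.44, 12.52 and 11.99 FPKM in CKO replicates 1 to 5. In Flox replicates 1 to 5 it was at 17.90, 18.59, 19.20, 20.30 and 16.78 FPKM. CKO replicates 2 and 3 lay within the Flox range, whereas CKO replicates 1, 4 and 5 lay below it, and the CKO libraries had a coefficient of variation of 30.5% against 7.15% in Flox. The means were 14.4 ± 4.39 and 18.6 ± 1.33 FPKM, with a log2 fold change of -0.39 (SE 0.17, limma adjusted p = 0.312). It was -0.26 without CKO replicate 1 and -0.046 with the muscle level as a covariate. The part of the muscle transcripts in this difference was not tested.

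Lif (Entrez 16878), leukemia inhibitory factor, was near the detection minimum throughout. It was at 0.83, 1.23, 1.09, 1.06 and 0.98 FPKM in CKO and at 1.21, 1.20, 1.55, 1.67 and 1.28 FPKM in Flox, in replicate order. Of the CKO libraries, replicate 2 alone reached the Flox range. The log2 fold change was -0.22 (SE 0.079, limma adjusted p = 0.237). With a pseudocount of 0.1 it was -0.38, and with the muscle covariate -0.15. Osm and Lif are adjacent entries on chromosome 11 in the RefSeq annotation (GRCm38.p6), and both had lower means in CKO.

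Il11 (Entrez 16156), a ligand known from fibrosis and bone, varied most of all members. It was at 1.32, 6.86, 1.14, 1.13 and 2.08 FPKM in CKO and at 2.84, 1.21, 1.74, 4.75 and 2.13 FPKM in Flox. A single library, CKO replicate 2, held more than any other, and the groups overlapped fully. The log2 fold change was -0.14 with a 95% interval of -0.97 to 0.68, turned to 0.054 without Flox replicate 4 and to 0.22 with the muscle covariate, so no direction is given.

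Among the receptor chains, Osmr (Entrez 18414), the specific chain for oncostatin M and the partner of the IL-31 receptor, was higher in every CKO library. It was at 23.12, 18.29, 19.05, 18.33 and 21.37 FPKM in CKO replicates 1 to 5. In Flox replicates 1 to 5 it was at 16.69, 13.63, 15.85, 17.43 and 16.10 FPKM. Its lowest CKO library, replicate 2, lay above its highest Flox library, replicate 4. The mean was 1.26-fold higher in CKO, and its log2 fold change was 0.31 (SE 0.081; 95% interval 0.13 to 0.49; limma adjusted p = 0.146). It was 0.26 when CKO replicate 1 was left out and 0.22 with the muscle covariate, and over all 17 alternatives the adjusted p was 0.121 to 0.548.

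Il6ra (Entrez 16194), the chain that gives a cell its sensitivity to IL-6, was at 22.53, 16.23, 20.06, 22.00 and 21.67 FPKM in CKO. In Flox it was at 14.78, 15.22, 14.84, 16.13 and 18.84 FPKM. All CKO libraries except replicate 2 lay above all Flox libraries. The mean was 1.28-fold higher, with a log2 fold change of 0.34 (SE 0.095, limma adjusted p = 0.161) that was 0.30 when CKO replicate 1 was left out and 0.18 with the muscle covariate.

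Lifr (Entrez 16880), the LIF receptor chain, was at 15.34, 7.73, 8.69, 10.99 and 11.03 FPKM in CKO. In Flox it was at 7.93, 7.54, 7.30, 6.77 and 8.36 FPKM, a much narrower range. CKO replicate 1 was highest by a wide margin, and CKO replicate 2 lay within the Flox range. The mean was 1.42-fold higher, with a log2 fold change of 0.42 (SE 0.15, limma adjusted p = 0.228). It was 0.30 when CKO replicate 1 was left out and 0.11 with the muscle covariate. Osmr and Lifr lie on chromosome 15 with 3 RefSeq entries and 0 protein-coding genes between them, and both had higher means in CKO.

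The shared chain Il6st (Entrez 16195), which encodes gp130, ranged from 72.72 to 94.22 FPKM in CKO (mean 81.4 ± 7.97) and 75.19 to 111.47 FPKM in Flox (mean 87.5 ± 14.8). Its log2 fold change of -0.093 ran from -0.33 to 0.15 at 95% (adjusted p from limma 0.744). Il11ra1 (Entrez 16157), the IL-11 receptor chain, had means of 93.1 ± 10.3 FPKM in CKO and 98.9 ± 3.95 FPKM in Flox, with a log2 fold change of -0.093 and a 95% interval of -0.26 to 0.073. Il11ra1 has a near-identical copy in the mouse, Il11ra2, and how shared reads were divided is not stated in the labels, so the values of both are uncertain. Il11ra2 itself was at 6.59 ± 3.31 FPKM in CKO and 3.41 ± 1.16 FPKM in Flox (limma adjusted p = 0.320), and its log2 fold change of 0.70 was 0.070 with the muscle covariate.

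**Figure D2:**
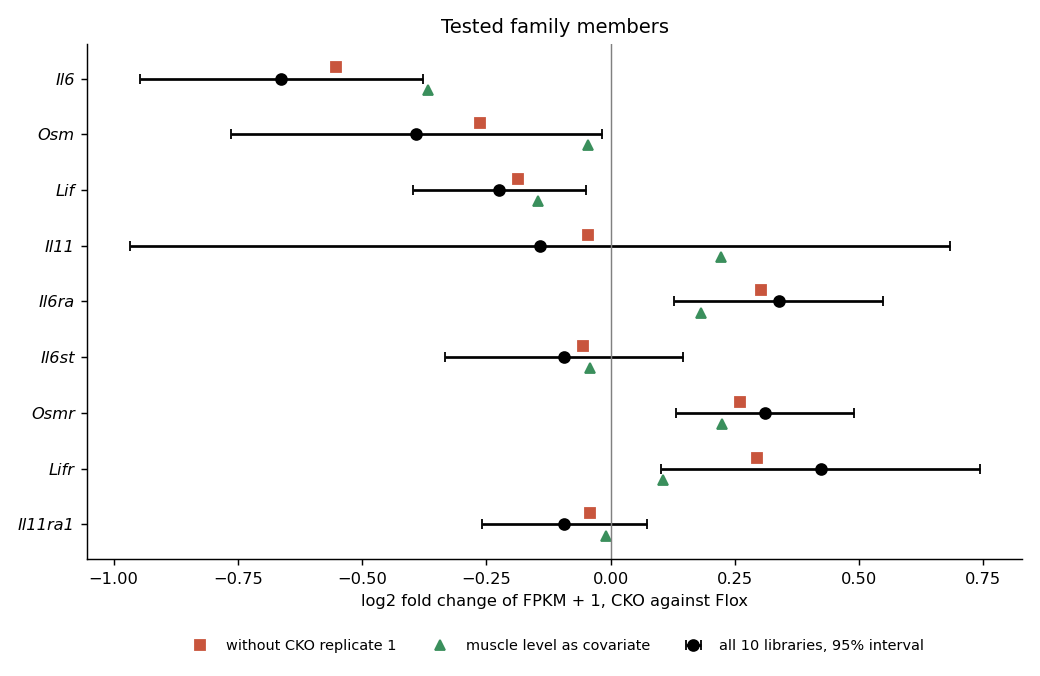
Log2 fold changes (CKO against Flox, log2(FPKM + 1) scale) of the 9 tested members, with 95% limma intervals over all 10 libraries (black), the value without CKO replicate 1 (square) and the value with the muscle marker level as a covariate (triangle). With the covariate the values move towards 0, except for Il11, which turns from -0.14 to 0.22. The change is from -0.39 to -0.046 for Osm, from 0.42 to 0.11 for Lifr, from -0.66 to -0.37 for Il6 and from 0.31 to 0.22 for Osmr.

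Il31ra (Entrez 218624), the chain specific for IL-31, was scarce and lower in CKO. It was at 0.84, 0.62, 0.60, 0.81 and 0.76 FPKM in CKO and at 1.19, 1.40, 0.77, 1.24 and 1.56 FPKM in Flox, in replicate order. Flox replicate 3 alone lay within the CKO range, and the other Flox libraries lay above it. The means were 0.726 ± 0.11 and 1.23 ± 0.296 FPKM, and an exact two-sided permutation test of the difference of -0.506 FPKM over all assignments of the libraries gave p = 0.0238, not adjusted for other genes. Without any 1 library the difference was -0.622 to -0.424 FPKM. Fitted without the filter on low values, its log2 fold change was -0.36 (SE 0.092, limma adjusted p = 0.179), so it did not pass over all genes. The ligand Il31, at 0 to 0.08 FPKM in CKO and 0 to 0.12 FPKM in Flox, was listed at 0 in several libraries of both groups. Il31ra is the direct neighbour of Il6st on chromosome 13 in RefSeq, and these neighbours differed in level by a wide margin.

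The window before Il31ra is shown because it is the only member window with STAT letters. It lies at chr13:112580663-112580912 on the minus strand (GRCm38.p6, RefSeq), with capitals as above.
Il31ra: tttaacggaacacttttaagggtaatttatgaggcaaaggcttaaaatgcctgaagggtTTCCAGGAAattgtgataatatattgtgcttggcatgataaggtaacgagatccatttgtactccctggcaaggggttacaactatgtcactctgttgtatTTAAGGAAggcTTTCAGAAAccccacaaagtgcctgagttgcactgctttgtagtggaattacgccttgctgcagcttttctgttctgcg
The STAT letters TTCCAGGAA lie 191 to 183 bases before the start. The C/EBP letters match 3 times, as TTAAGGAA at 90 to 83 and as TTTCAGAA and TTCAGAAA, which overlap each other, at 79 to 71. Of the 12 windows of the family members, 3 held C/EBP letters, 3 AP-1 letters and 1 each the NF-kB, CRE and STAT letters. Among all RefSeq windows the shares were 36.8%, 6.75%, 1.41%, 6.47% and 7.02%, in that order. For Osmr and Il31ra, the 2 chains of the IL-31 receptor, the mean levels went apart: the first was higher and the second lower in CKO.

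Ratios within a library, which do not depend on its total, set ligand beside receptor; these pairs were chosen after the values were seen and are given without a test. The ratio of Il6 to Il6ra was 0.392 to 0.956 in CKO (median 0.579) and 0.954 to 1.48 in Flox (median 1.30). The ratio of Osm to Osmr was 0.407 to 1.07 (median 0.683) and 1.04 to 1.36 (median 1.16). For Lif and Lifr it was 0.0541 to 0.159 in CKO and 0.153 to 0.247 in Flox. In the Il6 and Osm pairs the groups met only at their edges. For Lif to Lifr, CKO replicate 2 (0.1591) lay above Flox replicates 1 and 5 (0.1526 and 0.1531), near the Flox median of 0.159. In each of these 3 pairs CKO replicate 2 was the CKO library nearest to Flox. The ratio of Osmr to Il31ra was 22.6 to 31.8 in CKO and 9.74 to 20.6 in Flox, with no overlap. CKO replicate 1 was the lowest CKO library in the 3 ligand ratios but lay inside the CKO range for Osmr to Il31ra.

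**Figure D3:**
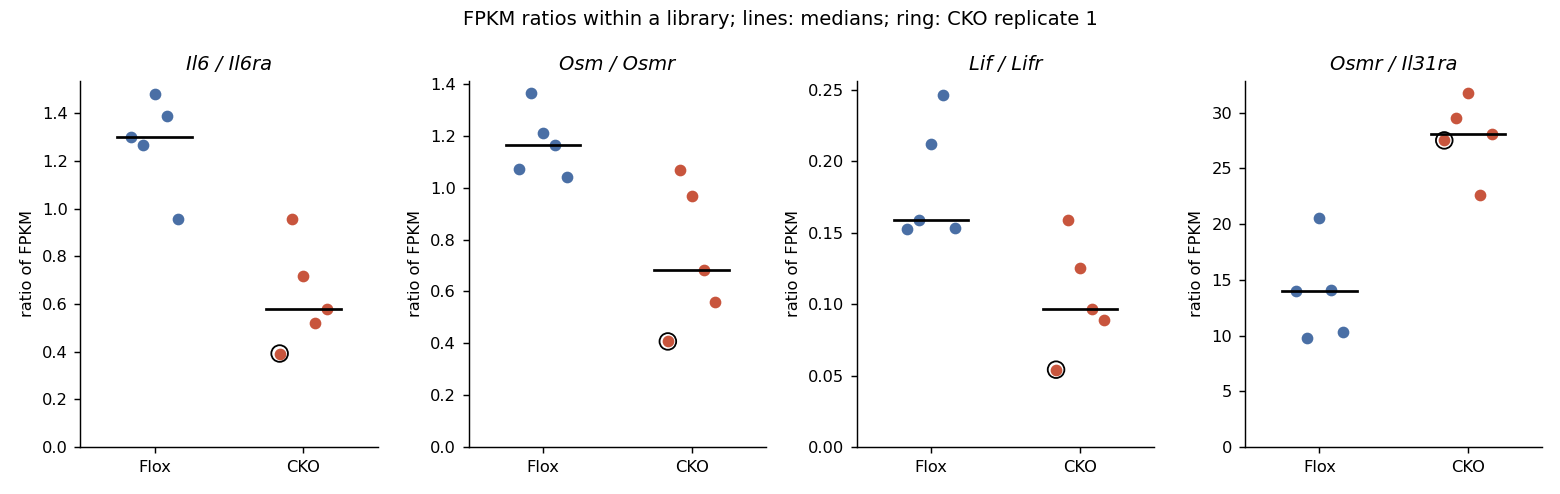
FPKM ratios of 4 pairs of family members in each Flox and CKO library (points), with group medians (lines) and a ring on CKO replicate 1; axes are linear and start at 0. The ligand to receptor ratios have lower medians in CKO, with CKO replicate 2 inside the Flox range. The Osmr to Il31ra ratio is 22.6 to 31.8 in CKO against 9.74 to 20.6 in Flox.

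Within each group, Il6 went up and down with Osm and with Lif from library to library. For this, the group mean was removed from the log2 values of each gene, and Pearson's r was taken over the 10 libraries with an exact permutation test within groups (14400 reorderings, two-sided), adjusted over the 8 relations tested. Il6 and Osm had r = 0.93 (exact permutation p = 0.000347, adjusted 0.00278) and Spearman's rho 0.87 (adjusted permutation p = 0.0287). Il6 and Lif had r = 0.81 (adjusted permutation p = 0.0106) and rho 0.79. Without the 2 libraries farthest from the median of Il6, CKO replicates 1 and 4, r was 0.83 for Osm and 0.89 for Lif. Of the other genes tested, 0.523% were at least as close to Il6 as Osm was, and 5.03% at least as close as Lif. Il11, not tested, had r = 0.54 with Il6, 0.49 with Osm and 0.58 with Lif.

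The STAT3 target Socs3 had r = 0.62 with Il6 and 0.54 with Osm (adjusted permutation p = 0.0890 for both), and 0.45 and 0.42 without the 2 farthest libraries. With Lif, not tested, r was 0.72. Osm and its receptor Osmr had r = -0.55 (adjusted permutation p = 0.230), which was 0.13 without CKO replicates 1 and 5. The 2 IL-31 receptor chains, Osmr and Il31ra, had r = 0.077 (adjusted permutation p = 0.824). Il6 and the mean of the basophil markers had r = 0.57 (adjusted permutation p = 0.280), which turned to -0.42 without CKO replicates 1 and 4, so this relation did not hold.

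Osm followed the mean of the 8 neutrophil markers, with r = 0.81 (adjusted permutation p = 0.0106), rho 0.85 and the same r without the 2 farthest libraries. The other ligands, not tested, had r = 0.87 (Lif), 0.83 (Il6) and 0.72 (Il11) with these markers. Over all 45 pairs of members, given as a description without tests, 4 had r above 0.7 and 4 below -0.7. The most negative were Lifr with Osm (r = -0.97, and -0.97 without CKO replicate 1) and Lifr with Il6 (r = -0.97, and -0.93). Lifr was thus high in the libraries where both ligands were low, in either group. Cell type markers also varied between libraries. Lifr had r = 0.80 with the mean of the keratinocyte markers and -0.81 with that of the neutrophil markers, and Osm had -0.84 and 0.81. The part of cell composition in these relations was not tested.

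**Figure D4:**
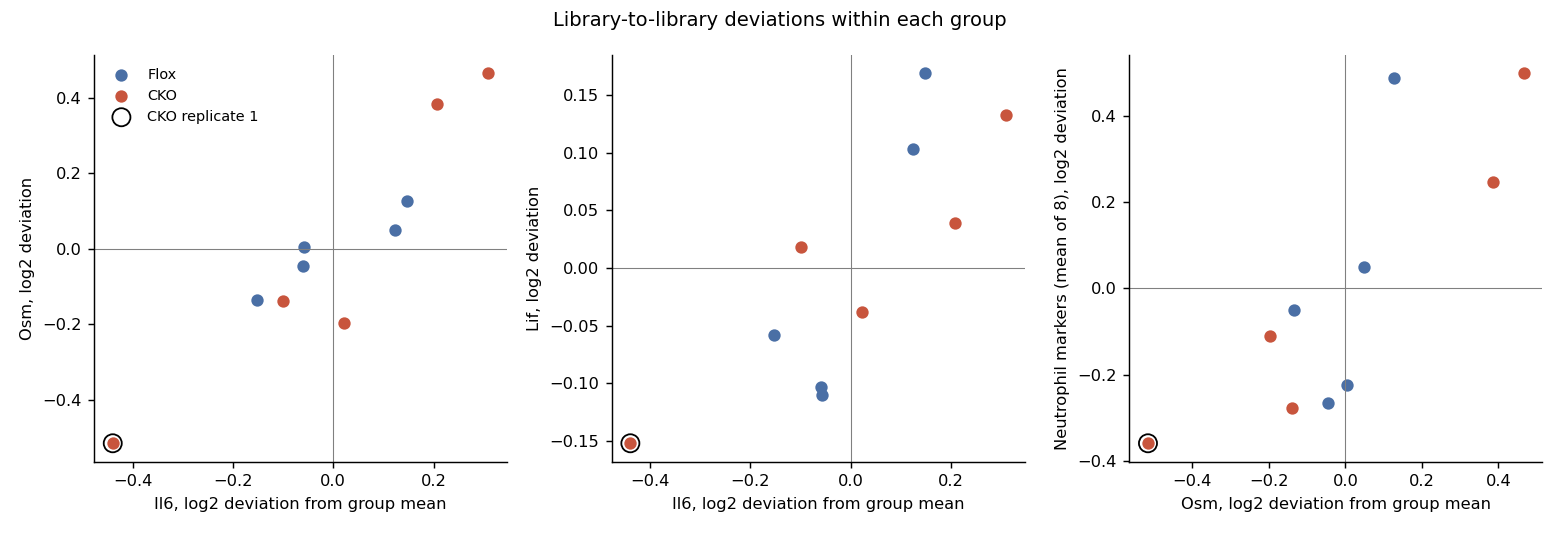
Deviations of log2(FPKM + 1) from the group mean in each of the 10 libraries for Il6 against Osm (r = 0.93), Il6 against Lif (r = 0.81) and Osm against the mean of 8 neutrophil markers (r = 0.81); the ring marks CKO replicate 1. Points rise from left to right in each panel, and Flox points span a narrower range of Il6 and Osm than CKO points.

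The genes whose log2 values over the 10 libraries were most like those of a member were sought among 12719 tested genes with a gene name, with the group difference left in. For Il6 they were Fam181b (r = 0.97), Zfp808 (r = 0.97) and Iqcc (r = 0.96). Fam181b and Zfp808 were themselves low, at 0.48 to 1.31 FPKM. For Osm they were Arid3b (r = 0.97), Spic (r = 0.97), a transcription factor of macrophages, and Evi2b (r = 0.96), a membrane protein of leukocytes. Spic ranged from 3.24 to 17.17 FPKM. For Il31ra they were Znrf2, Zbtb33 and Ankmy2 (r = 0.96, 0.96 and 0.94). With group means removed the r of these 9 genes was 0.85 to 0.96. They are the most extreme of many, so no p is given.

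Further along the pathway, other ligands and receptors of the family showed no gene that passed. Of 11 such genes 8 were tested, 5 with a positive and 3 with a negative log2 fold change. At an unadjusted limma p under 0.05, 2 were higher, against 4.78% of all genes tested. Clcf1, a ligand of the CNTF receptor, was at 9.56 ± 1.08 FPKM in CKO and 7.81 ± 1.07 FPKM in Flox (limma adjusted p = 0.256). Il27ra, the IL-27 receptor chain that pairs with gp130, was at 1.92 ± 0.388 and 2.43 ± 0.393 FPKM. The list median was 0.13, and -0.016 with the muscle covariate; without CKO replicate 1, 1 gene was higher at that unadjusted p.

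Of the 12 genes of the kinase and STAT relay, all were tested, 0 passed in limma and 10 had a negative log2 fold change (list median -0.060, and 0.012 without CKO replicate 1). At an unadjusted limma p under 0.05, 1 was higher and 1 lower, against 4.78% and 10.3% of all genes tested. Stat3, the main effector of gp130, was at 83.43, 78.85, 82.39, 75.94 and 76.60 FPKM in CKO. In Flox it was at 72.31, 62.76, 69.89, 74.50 and 73.08 FPKM. The groups did not overlap, though the log2 fold change was small, 0.17 (SE 0.055, limma adjusted p = 0.211). Stat5a, a STAT of other cytokine receptors, was at 10.5 ± 1.41 FPKM in CKO and 12.7 ± 1.21 FPKM in Flox (limma adjusted p = 0.257), and the docking protein Gab1 had a log2 fold change of -0.12 (SE 0.058).

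Among 11 inhibitors and receptor sheddases, 0 passed in limma. At an unadjusted p under 0.05, 2 were higher and 3 lower, against 4.78% and 10.3% of all genes tested. The list median of -0.049 turned to 0.019 without CKO replicate 1. Socs3, the inhibitor that binds gp130, was at 58.31, 68.11, 84.92, 66.72 and 70.76 FPKM in CKO. In Flox it was at 42.21, 43.02, 47.41, 65.31 and 48.25 FPKM. Flox replicate 4 lay within the CKO range and the other Flox libraries below it. The log2 fold change was 0.50 (SE 0.13, limma adjusted p = 0.135), so the mean of Socs3 was higher in the group whose mean Il6, Osm and Lif were lower. Cish, an inhibitor induced through STAT5, went the other way without overlap, at 8.64 ± 0.395 FPKM in CKO and 11.7 ± 1.10 FPKM in Flox (log2 fold change -0.40, SE 0.063, limma adjusted p = 0.0507). Without CKO replicate 1 it passed (limma adjusted p = 0.0459), and with array quality weights too (limma adjusted p = 0.0284). In the other 15 of 17 alternatives it did not pass, with a limma adjusted p of up to 0.255. Adam10, a protease that can shed the IL-6 receptor, was at 38.0 ± 1.27 and 42.8 ± 3.72 FPKM, also without overlap (limma adjusted p = 0.250).

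Genes known to respond to STAT3 were on the higher side. Of 26 tested, 21 had a positive log2 fold change, against 39.5% of all genes, and 1 rose over all genes tested in limma. At an unadjusted p under 0.05 there were 9 higher and 1 lower, where 4.78% and 10.3% of all genes were; the list median was 0.22, beside -0.027 over all genes. Without CKO replicate 1 the median was 0.23, with 11 higher and 1 lower. The gene that rose was Bcl2l1, the gene of BCL-XL, which protects cells from apoptosis. Its CKO libraries were at 30.62, 27.58, 36.51, 30.73 and 32.15 FPKM. The Flox libraries were at 21.24, 19.76, 20.93, 24.76 and 21.13 FPKM. The groups did not overlap, and the log2 fold change was 0.53 (SE 0.078, limma adjusted p = 0.0463), 0.47 to 0.57 over all 17 alternatives. The call was lost in 11 of these, among them without any 1 of CKO replicates 3, 4 and 5 and Flox replicates 1, 2, 3 and 5 (limma adjusted p 0.0646 to 0.145). The 8 neutrophil markers summed to 286 to 495 FPKM in CKO and 235 to 392 FPKM in Flox. The 6 of them tested had log2 fold changes of -0.080 to 0.71 (median 0.28), 5 positive and 1 negative. The part of neutrophil transcripts in the STAT3 list was not tested.

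**Figure D5:**
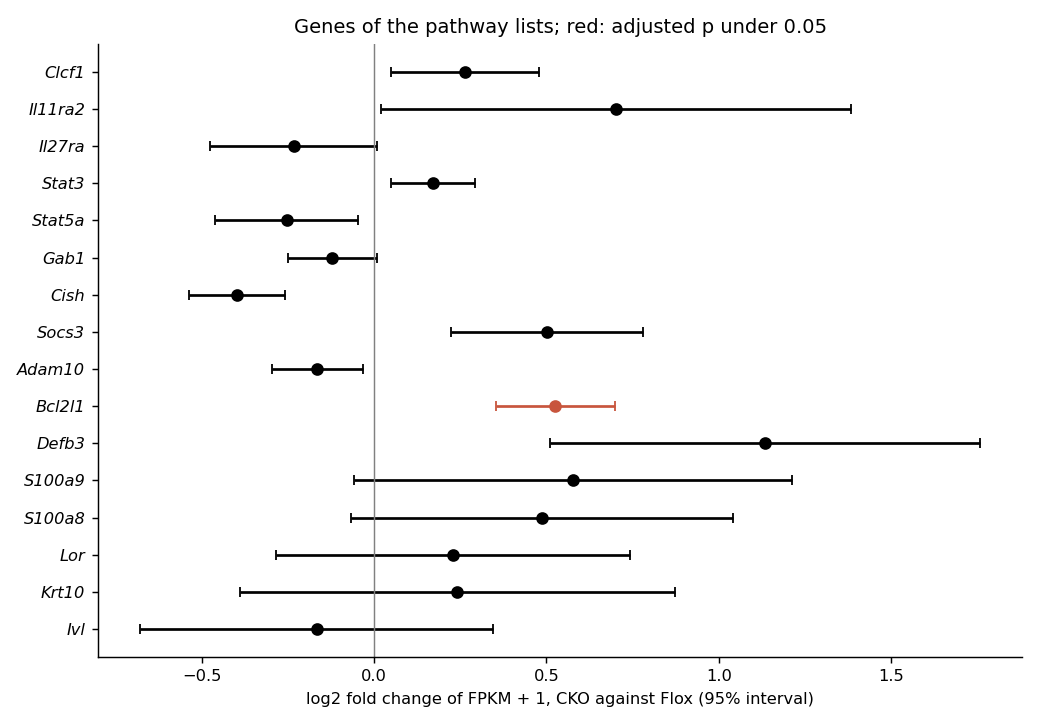
Log2 fold changes with 95% limma intervals (CKO against Flox, log2(FPKM + 1) scale) of the named genes of the pathway lists; red marks an adjusted p under 0.05. Bcl2l1 at 0.53 is the gene past the threshold, with Socs3 at 0.50 and Cish at -0.40 on either side of 0.

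Keratinocyte genes that oncostatin M is known to raise in human culture were tested in full, 7 genes. In limma 0 passed and 1 was higher at an unadjusted p under 0.05, against 4.78% of all genes tested. The list median was 0.31, beside -0.027 over all genes. Its log2 fold changes ran from -0.091 to 1.14, with 5 positive and 2 negative, where 39.5% of all genes were positive. The genes named below are those of lowest p, so they do not stand for the whole list. Without CKO replicate 1, 3 were higher at that unadjusted p. Defb3, an antimicrobial peptide, was at 32.9 ± 10.1 FPKM in CKO and 14.7 ± 6.41 FPKM in Flox (log2 fold change 1.14, SE 0.28, limma adjusted p = 0.135). The calprotectin genes S100a8 and S100a9, which neutrophils also carry, differed by 0.49 (SE 0.25) and 0.58 (SE 0.29) on the log2 scale. With the muscle covariate these values were 0.94 and 1.09, and the list median was 0.74. Of 5 differentiation genes known to be lowered by oncostatin M in human culture, 0 passed and 0 were under an unadjusted p of 0.05 in limma. Lor, the cornified envelope protein loricrin, had a 95% interval of -0.29 to 0.74, Krt10, a keratin of upper layers, one of -0.39 to 0.87, and Ivl, involucrin, one of -0.68 to 0.35. The values of Lor and Krt10 turned to -0.13 and -0.16 with the muscle covariate, so no direction is given for this group.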

How the data were processed

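Skin RNA of 10 samples, 5 CKO and 5 Flox as grouped by their titles, was read as single-end DNA nanoball libraries of poly(A) RNA, per the labels' protocols. The authors deposited FPKM per gene, per the file headers. HISAT is named in the submitters' processing notes, and a counter, genome build and annotation are not. The number of reads is therefore unknown, and intervals for counting error cannot be given.

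The FPKM were taken as deposited. limma 3.58.1 (R 4.3.3, trend, robust off) was fitted to log2(FPKM + 1) for 13186 of 19175 genes, those reaching 1 FPKM in 5 or more libraries, two-sided, with Benjamini-Hochberg adjustment over all of them and a threshold of 0.05. The script was tested on simulated data. Il31ra, below the filter, was tested by exact permutation. The members and gene lists were chosen with earlier results of these data known. Beside the members, the text names of each pathway list every gene that passed or else up to 3 of lowest p, Socs3, and the 3 genes most like Il6, Osm and Il31ra. The choice of ratios and of the Lifr pairs came after the values were seen. Of the listed names, 2 (Loricrin and Tpsab1) matched no symbol. Alternatives were a pseudocount of 0.1, no filter, quantile normalization, equal totals, array quality weights, the replicate number as a block, the muscle marker level as a covariate and each library left out in turn. Promoter windows are RefSeq, GRCm38.p6.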

Additional observations from a re-analysis of the deposited data

Results flagged for a closer look

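In 70 groups of 5 libraries (the 10 members and the other named genes in each group), 2 held a library far from the rest by Dixon's test, and chance alone sets apart about 1 group in 20. Il11 was at 6.86 FPKM in CKO replicate 2, where the next CKO library was at 2.08 FPKM and the lowest at 1.13 FPKM. Socs3 was at 65.31 FPKM in Flox replicate 4, where the next Flox library was at 48.25 FPKM and the lowest at 42.21 FPKM.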

How the results depend on the processing

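Over all genes tested, 6 genes were called higher and 8 lower in CKO (limma). Leaving out 1 library gave 0 to 11 higher and 0 to 15 lower: 11 and 15 without CKO replicate 1, 1 lower without CKO replicate 2 or Flox replicate 4, 1 and 4 without CKO replicate 3 or 5, 1 and 2 without CKO replicate 4, and 0 in both directions without any 1 of Flox replicates 1, 2, 3 and 5. There were 1 higher and 2 lower with no filter on low values, 2 higher with totals made equal, 30 higher and 60 lower with array quality weights, and 0 in both directions with the muscle covariate; the cause was not tested. Of the family members 0 were called in every one of these except array quality weights, where 1 was lower, Il6 (log2 fold change -0.63). Members kept their direction and side of the threshold in 162 of 165 recomputed values. The exceptions were that call and Il11, which ran from -0.49 to 0.054 with 1 library left out (highest without Flox replicate 4). Il11 was 0.22 with the muscle covariate. No member passed in the main limma fit, so any uncalled value of the same sign counted as kept, whatever its size. With the muscle covariate, Osm counted as kept while going from -0.39 to -0.046, and Lifr while going from 0.42 to 0.11. Among the other 25 named genes, direction and side of the threshold were kept in 407 of 425 values. Reversed were Lor (-0.13), Krt10 (-0.16), Spic (0.15) and Evi2b (0.047), all with the muscle covariate. Samples with the same replicate number did not deviate together (r of -0.21 to 0.212, with 1 of 10 samples closest to its own number). With so few libraries, these r cannot tell whether such samples share more than a number. With the replicate block 0 genes were called higher and 0 lower, Il6 stayed at -0.66 (limma adjusted p = 0.181) and Bcl2l1 at 0.53 (limma adjusted p = 0.158). For Il31ra no fit with pseudocount, weights, covariate or block was run, since its test was on FPKM.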
